A study of Caenorhabditis elegans with 22 samples.

Results

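The comparison described here is between worms labelled rotenone and worms labelled 2-deoxyglucose at 20 days of age, the oldest age of the series, and it rests on 2 small RNA libraries per group. Its members are the miRNA hairpins that held 10 or more counts in at least 2 of these 4 libraries, which were 129 of the 250 hairpins counted. All libraries came from whole hermaphrodites of the wild-type Caenorhabditis elegans strain N2. Rotenone was given at 0.039441 µg/ml and 2-deoxyglucose at a dose that was not known here. The other 18 libraries of the series are the same 2 treatments at days 1, 5 and 10, with 3 libraries per group, and they enter below as the source of the spread between libraries and as the younger ages. The series title names DMSO in place of 2-deoxyglucose, and the sample labels were followed. With no untreated group in the comparison, a difference cannot be assigned to one compound. Whether the libraries of a group are separate cultures is not stated, so p-values measure the spread between libraries, part of which may be technical.

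Rotenone blocks mitochondrial complex I, the entry point of NADH electrons into respiration, and 2-deoxyglucose is a glucose analogue that blocks glycolysis. An miRNA is cut from a hairpin precursor, is loaded into an Argonaute protein and represses mRNAs that pair with its seed, so hairpins with the same seed are grouped as families. In the worm, the lin-4 and let-7 families time larval development, the mir-35 family is made in oocytes and embryos, the bantam relatives of the mir-58 family are among the most abundant miRNAs, and mir-34, mir-71, mir-238, mir-239 and mir-246 have been linked to lifespan. Each hairpin had a single count, so its arms could not be separated.

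The rotenone libraries 1 and 2 held 1174436 and 1436058 counts and the 2-deoxyglucose libraries 1 and 2 held 850668 and 1119978. Levels are given as CPM, counts scaled for depth after TMM correction for library composition, and 1 count was worth between 0.739 and 1.11 CPM. The 10 hairpins with the most counts took from 69.4% to 71.2% of each library. The largest share belonged to mir-228, a glial miRNA, in rotenone library 1 (13.6%), to mir-40 of the mir-35 family in rotenone library 2 (11.5%) and to mir-82, a bantam relative, in the 2-deoxyglucose libraries (13.4% and 13.7%). The rotenone libraries differed from each other by a chi-square per degree of freedom of 117, inside the range of 90.9 to 161.9 for pairs of libraries from different groups, while the 2-deoxyglucose libraries differed by 22.2. By Pearson correlation of members on the log2 scale, both same-group pairs were more alike (0.9961 with rotenone and 0.9956 with 2-deoxyglucose) than any pair from different groups (0.9901 to 0.9917). The correlated members include mir-2208a, the hairpin furthest apart between the groups, and its part in this gap was not tested. The median member was 0.22 apart on the log2 scale between the rotenone libraries and 0.11 between the 2-deoxyglucose libraries. Between single libraries of different groups it was 0.26 to 0.27 apart, and between the group means 0.23. All pairs therefore differed far beyond counting noise, and no library looked like a repeat of another. Of the 98 members with a mean of at least 50 CPM, 4 were over 0.5 apart on the log2 scale between the rotenone libraries and 2 between the 2-deoxyglucose libraries. By the fitted difference between groups, which averages 2 libraries per group, it was 7. The widest gap between the rotenone libraries belonged to mir-1820, at 325 and 203 CPM, followed by mir-240, at 15624 and 9846 CPM. Rotenone libraries were on lanes 2 and 3 and 2-deoxyglucose libraries on lanes 4 and 5, as the library descriptions number them. Within day 20, lane and compound cannot be told apart, and the lane term used below was estimated from all 22 libraries.

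The hairpin that separated the groups most was mir-2208a, which lies in no protein-coding gene, on the plus strand of chromosome IV (WBcel235, 1021772 to 1021832). Its raw counts were 155 and 156 in the rotenone libraries and 940 and 1422 in the 2-deoxyglucose libraries. Scaled, it stood at 132 and 115 CPM with rotenone and at 1042 and 1219 CPM with 2-deoxyglucose. The groups were thus far apart, with means of 124 ± 11.8 and 1131 ± 125 CPM (SD, n = 2 each), or 9.15-fold more in 2-deoxyglucose. The log2 difference was -3.19 ± 0.27 (SE; edgeR quasi-likelihood F test on all 22 libraries, Benjamini-Hochberg adjusted p = 7.57e-09). This was the 1 hairpin of 141 fitted, 0.709%, that passed an adjusted p of 0.05, and it passed in each of the 22 alternative settings tried. None passed in the other direction by edgeR, DESeq2 or limma-voom on all libraries. At an unadjusted p under 0.05 edgeR gave 25 hairpins (17.7%), of which 17 were higher (12.1%) and 8 lower (5.67%) with rotenone. The median difference of the fitted hairpins was 0.12 with this TMM scaling and -0.02 with DESeq2 size factors. Fitted alone, the 4 day 20 libraries gave 5 calls higher and 11 lower at an adjusted p of 0.05. The part of the scaling in these splits was not tested.

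The other hairpins named mir-2208 or mir-2209 lie on the same stretch of chromosome IV. The namesake, mir-2208b, lies 4747 bases further along on the same strand at 1026580 to 1026640. It stood at 20.4 and 24.4 CPM with rotenone and at 42.1 and 38.6 CPM with 2-deoxyglucose, a log2 difference of -0.84 ± 0.31 that did not pass on 22 libraries (adjusted p = 0.151). A further 460 bases along, mir-2209a stood at 252 and 259 CPM against 411 and 376 CPM, a log2 difference of -0.62 ± 0.24 (adjusted p = 0.151). The groups did not overlap for either hairpin. Too scarce to be members, mir-2209b held 2 and 5 counts with rotenone against 7 and 11, and mir-2209c held 1 and 0 counts against 3 and 1. The list of these 5 hairpins had 3 fitted, with a median log2 difference of -0.84 beside 0.12 over all fitted hairpins.

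**Figure D1:**
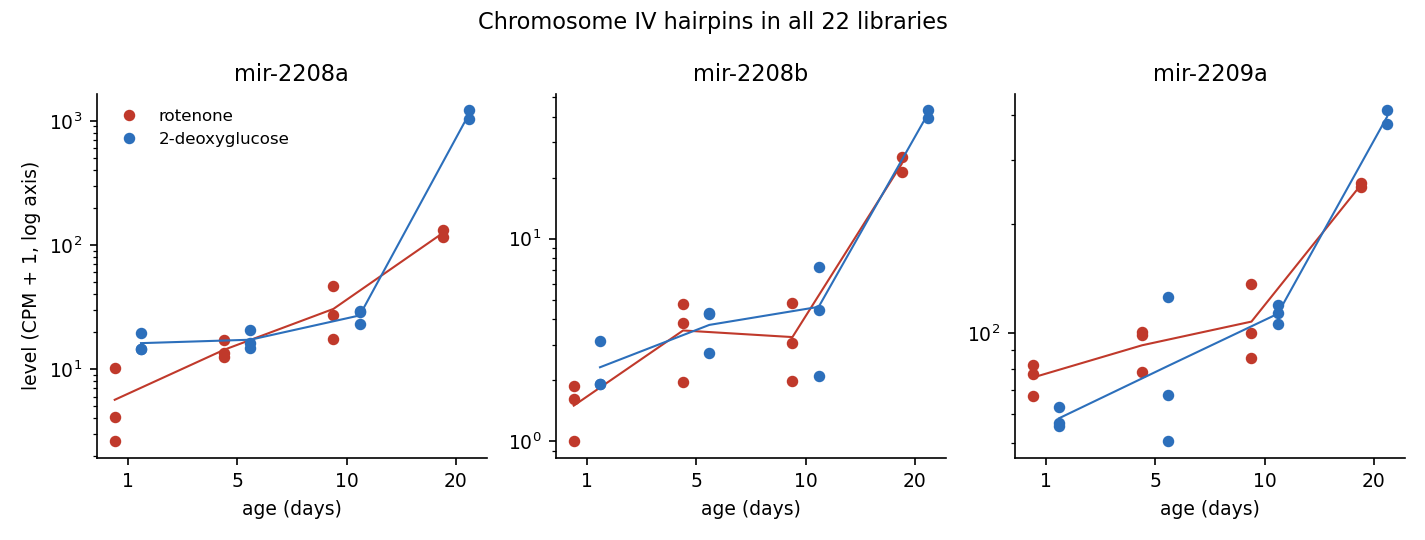
Level of mir-2208a, mir-2208b and mir-2209a (CPM + 1, log axis) in each of the 22 libraries at 1, 5, 10 and 20 days (ages evenly spaced), with rotenone in red and 2-deoxyglucose in blue; points are libraries and lines join group means. At day 20 mir-2208a lies at 115 and 132 CPM with rotenone and at 1042 and 1219 CPM with 2-deoxyglucose.

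The gap in mir-2208a at day 20 was wider than the mean of the younger gaps. At day 1 it was scarce in both groups, from 1.62 to 9.28 CPM with rotenone and from 13.5 to 18.5 CPM with 2-deoxyglucose, and the difference of -1.71 ± 0.40 passed the test (adjusted p = 0.00649 in edgeR). At day 5 it ranged from 11.4 to 16.1 CPM with rotenone and from 13.9 to 19.8 CPM with 2-deoxyglucose, and at day 10 from 16.3 to 45.7 CPM and from 21.9 to 28.5 CPM. The groups overlapped at both ages, and the differences of -0.23 ± 0.38 and 0.21 ± 0.31 did not pass. For scale, the test called 16 of 141 hairpins at day 1 (11.3%, with 9.22% higher and 2.13% lower with rotenone), 14 at day 5 (9.93%, with 8.51% higher and 1.42% lower) and 8 at day 10 (5.67%, with 4.26% higher and 1.42% lower). The day 20 difference minus the mean of the 3 younger differences was -2.62 ± 0.34 on the log2 scale (edgeR, adjusted p = 1.75e-05). The same contrast was called for 2 of 141 hairpins (1.42%), and the other is mir-246, described below. For mir-2208b the differences at days 1, 5 and 10 were -1.02 ± 0.86, 0.08 ± 0.64 and -0.80 ± 0.61, with at most 6.26 CPM in any younger library. For mir-2209a they were 0.38 ± 0.22, 0.25 ± 0.22 and -0.07 ± 0.21, none of them past the threshold.

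How many other hairpins were called differed between the fits, which differed in the spread, the scaling and the hairpins kept. The part of each in the number of calls was not tested. The 8 groups together gave a median biological coefficient of variation of 13.3%, and the 4 day 20 libraries alone gave 8.56%. Fitted alone, these 4 libraries called 16 of 129 members (12.4%), 5 higher with rotenone (3.88%) and 11 lower (8.53%). With the scaling factors of the whole table in place of their own, the same 4 libraries called 20, of which 15 were higher and 5 lower, and 10 were shared with the 16. Without 2-deoxyglucose library 1 or library 2 they called mir-2208a alone, and without rotenone library 1 or library 2 they called 23 and 30. In each of these fits a group had 1 library, assumed to vary like the remaining pair, whose single residual degree of freedom gave the spread. The 2 scalings placed the median hairpin 0.13 apart on the log2 scale. An exact permutation test on a single hairpin cannot go below 0.333 with 2 libraries per group.

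**Figure D2:**
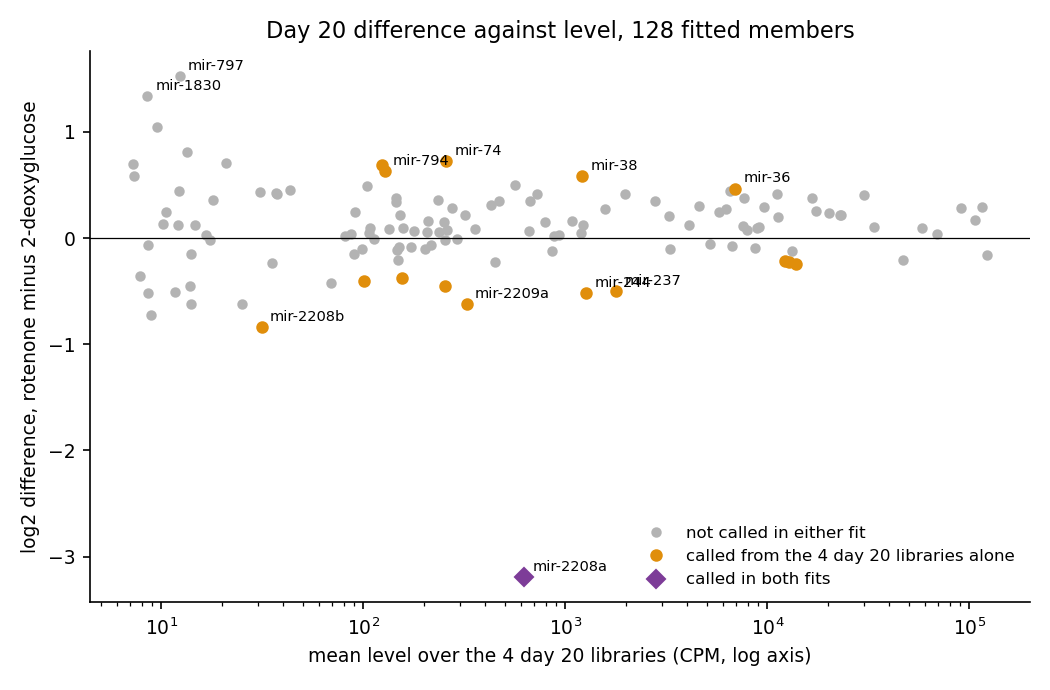
Log2 difference (rotenone minus 2-deoxyglucose, vertical axis) against the mean level over the 4 day 20 libraries (CPM, log axis) for the 128 members that were fitted. The purple diamond, mir-2208a, lies at -3.19 and orange points are the 15 further hairpins called from the 4 libraries alone, which all lie between -0.84 and 0.73.

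Among the timing miRNAs, mir-237, the relative of lin-4 on chromosome X, was called lower with rotenone in the 4-library test. It stood at 1502 and 1465 CPM with rotenone and at 1970 and 2219 CPM with 2-deoxyglucose. The groups did not overlap, and the log2 difference was -0.63 ± 0.10 from the 4 libraries (edgeR, adjusted p = 0.00118) and -0.50 ± 0.16 from all 22 (adjusted p = 0.141). It was called in 11 of 22 alternatives, lane as a factor among them. Its level was far higher at younger ages, from 37947 to 45818 CPM over the 6 day 1 libraries and from 4336 to 5766 CPM over the 6 of day 10, where the difference was 0.21. The median of the 2 lin-4 family hairpins was -0.21. Its sister lin-4, which represses the larval timing gene lin-14, stood at 345 and 389 CPM against 318 and 376 CPM, with overlapping groups. Of the 7 let-7 family members none passed on 22 libraries, and the family median was -0.06, with 2 above 0 and 5 below. Of these, let-7 itself was at 269 and 313 CPM with rotenone and 322 and 265 CPM with 2-deoxyglucose, which overlapped. The 4-library test called mir-48 lower (12390.1 and 12889 against 15011 and 14924 CPM; -0.38 ± 0.10, adjusted p = 0.0351) and mir-794 higher (159 and 151 against 101 and 99.5 CPM; 0.50 ± 0.14, adjusted p = 0.0351). In the 22-library fit mir-48 was at -0.24 ± 0.13 (adjusted p = 0.330) and mir-794 at 0.63 ± 0.16, just short of the threshold (adjusted p = 0.0533). Their neighbours on the chromosome were not called at day 20. On 22 libraries mir-241, 1678 bases from mir-48, was at 0.33 ± 0.20, and mir-795, 1032 bases from mir-794, at -0.08 ± 0.17.

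A difference of like size was seen in mir-244, on chromosome I outside protein-coding genes. It stood at 1083 and 1005 CPM with rotenone and at 1441 and 1544 CPM with 2-deoxyglucose, without overlap. The 4 libraries gave -0.65 ± 0.10 (edgeR, adjusted p = 0.00118) and all 22 gave -0.52 ± 0.16 (adjusted p = 0.141). With lane as a factor the difference was -0.29 and was not called. Its difference at days 1, 5 and 10 was -0.04 ± 0.13, 0.15 ± 0.13 and 0.31 ± 0.13, and the day 20 difference minus their mean was -0.66 (adjusted p = 0.0570). For mir-237 the same contrast was -0.58 (adjusted p = 0.142).

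In the embryonic mir-35 family, mir-35 to mir-41 lie in a single run on chromosome II from 11537608 to 11538404. All 8 fitted members of the family stood above 0 with TMM, from 0.04 to 0.58, as did 95 of all 141 fitted hairpins. The family median was 0.23 beside 0.12 over all hairpins. None of the 8 passed on 22 libraries. In the 4-library fit 6 were above 0 and 2 below, and the test called mir-38 (0.45 ± 0.11, edgeR adjusted p = 0.0213) and mir-36 (0.33 ± 0.10, adjusted p = 0.0367). Rotenone libraries held mir-38 at 1412 and 1501 CPM against 1029 and 917, and mir-36 at 7690 and 8436 CPM against 5798 and 5881. Also without overlap, but not called, were mir-35, at 90691 and 108876 against 79554 and 84183 CPM, and mir-39, at 32635 and 36014 against 26584 and 25374 CPM. Of all members with TMM, 40.3% had the rotenone group above without overlap. The same run also held members with overlapping groups: mir-40, at 104437 and 121984 against 94600 and 106843 CPM, and mir-37 and mir-41. So did mir-42, outside the run. Summed, the family made up 268785 and 316498 CPM with rotenone and 239190 and 258341 CPM with 2-deoxyglucose, so the groups did not overlap with TMM. They did with total counts, where the sums were 268816 and 298221 against 253616 and 268974, and the part of embryos in the other differences was not tested. At younger ages the direction varied. Without overlap, mir-36, mir-38 and mir-39 were higher with rotenone at day 1 and lower at day 10. For mir-36 the levels were 1431 to 1698 against 1050 to 1207 CPM at day 1 and 2476 to 3312 against 4155 to 4615 CPM at day 10. These are whole worms, in which fewer cells of a type and less RNA per cell cannot be told apart.

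A group of X-linked neighbours stood higher in both rotenone libraries than in either 2-deoxyglucose library. The miR-31 relatives mir-73 and mir-74 lie 179 bases apart, and mir-75 is 3313 bases further along. The 4-library test called mir-74 (325 and 315 against 202 and 185 CPM; 0.60 ± 0.12, edgeR adjusted p = 0.00729) and mir-75 (131 and 174 against 93.1 and 96.0 CPM; 0.56 ± 0.16, adjusted p = 0.0351). The third, mir-73, was at 7623 and 7443 against 5653 and 5416 CPM and did not pass (0.31 ± 0.10, adjusted p = 0.0580). On 22 libraries the differences were 0.73 ± 0.24, 0.69 ± 0.28 and 0.44 ± 0.21, with adjusted p of 0.141, 0.177 and 0.276. With lane as a factor mir-75 was at 0.0021. The unlinked relative mir-72, on chromosome II, had overlapping groups (57566 and 62877 against 57703 and 55244 CPM). At day 1, mir-74 was also higher with rotenone (0.82 ± 0.19, adjusted p = 0.00546). Its groups overlapped at day 5 (225 to 359 against 158 to 305 CPM) and at day 10 (201 to 278 against 218 to 262 CPM). For mir-73 the rotenone group was above without overlap at day 1, and the groups overlapped at days 5 and 10. For mir-75 the groups overlapped at days 1 and 5, and at day 10 the rotenone group was below (155 to 203 against 212 to 286 CPM).

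**Figure D3:**
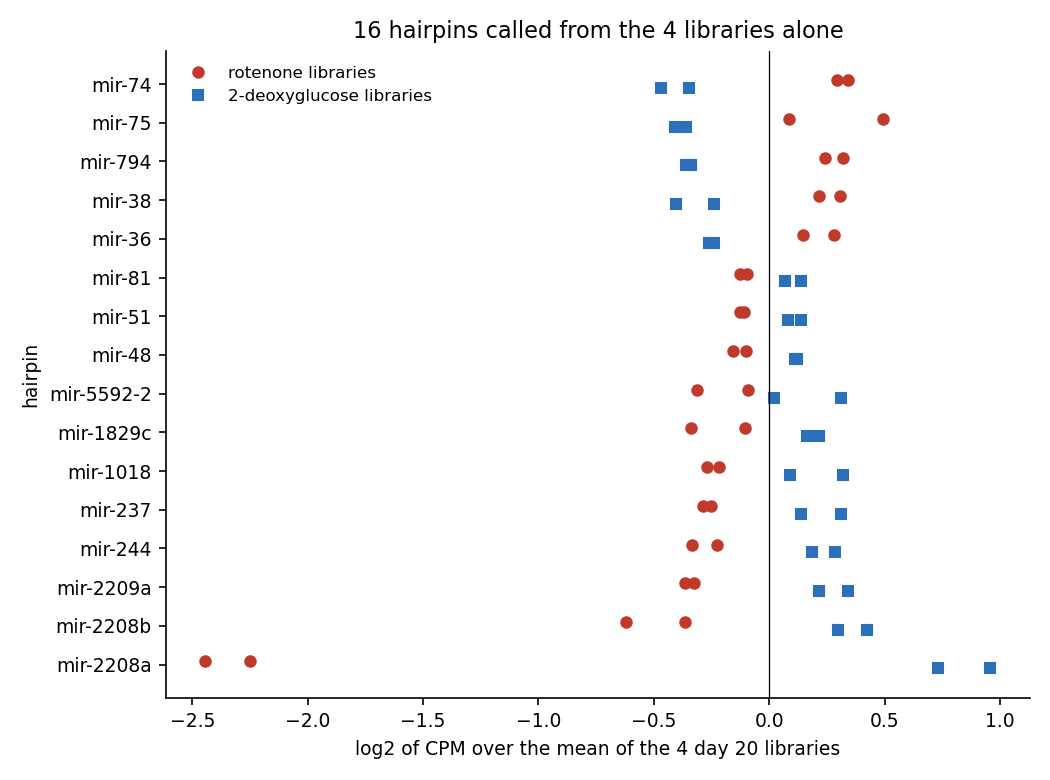
CPM in each day 20 library relative to the mean of the 4, on the log2 scale, for the 16 hairpins called from these libraries alone; red circles are rotenone and blue squares 2-deoxyglucose libraries. In all 16 rows the red and blue marks do not overlap, mir-2208a having by far the widest gap and mir-5592-2 the narrowest.

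The remaining 4-library calls were lower with rotenone. Among the abundant families these were mir-51, a miR-100 relative (11686 and 11834 against 13508 and 14037 CPM; -0.36 ± 0.10), and mir-81, a bantam relative (11160 and 11420.2 against 12778 and 13420.2 CPM; -0.35 ± 0.10), with edgeR adjusted p of 0.0351 and 0.0367. On 22 libraries they were at -0.23 ± 0.16 and -0.21 ± 0.16, and mir-51 was at 0.07 with lane as a factor. The annotation places the X-linked mir-1018 outside protein-coding genes, although it was listed here with the mirtrons (miRNAs made from spliced introns). It stood at 210 and 218 against 271 and 316 CPM (-0.59 ± 0.12, adjusted p = 0.00729; -0.46 ± 0.18 on 22 libraries). At day 1 mir-1018 was higher with rotenone (17.0 to 22.9 against 8.50 to 11.8 CPM; 1.01 ± 0.24, edgeR on 22 libraries, adjusted p = 0.00649). Its differences at days 5 and 10 were -0.24 ± 0.21 and -0.31 ± 0.20, without a call. An intron of piki-1 holds mir-1829c, which stood at 79.2 and 93.1 against 116 and 112 CPM (-0.54 ± 0.15, adjusted p = 0.0351). Its namesake mir-1829b, in an intron of F20D1.3, was at 158 and 170 against 130 and 123 CPM, without a call (0.24 ± 0.13 from the 4 libraries and 0.37 ± 0.16 from 22). Another namesake, mir-1829a in an intron of gas-1, was below 0 without a call (-0.76 ± 0.33 and -0.62 ± 0.30). Its groups overlapped with TMM, at 17.0 and 22.9 against 22.2 and 38.6 CPM. The call of mir-5592-2 (125 and 146 against 157 and 193 CPM) is uncertain, since it overlaps mir-5592-1 on the opposite strand of an intron of aakb-1 and whether reads were counted by strand is not stated.

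Of the mir-58 family, 4 were members, 3 of them with the rotenone group below without overlap, as in 17.8% of all members: mir-80 (44552 and 43050.5 against 50614 and 50481 CPM), mir-81 and mir-82 (114462 and 116750 against 126172 and 131882 CPM). The fourth, mir-58a, overlapped, and the family median of 5 fitted hairpins was -0.21. The mir-2 family, made up of mir-2, mir-43, mir-250 and mir-797, had a median of 0.49, all 4 above 0 and none overlapping, but none called in either fit. Of all 141 fitted hairpins 95 were above 0, and 40.3% of members had the rotenone group above without overlap. In it, mir-43 was at 121 and 123 against 89.8 and 84.0 CPM. The scarce mir-797 had 25 and 21 counts against 5 and 8, a log2 difference of 1.53 ± 0.53 (edgeR, adjusted p = 0.145). The other members over 1 in size, apart from mir-2208a, were mir-1830 (1.33 ± 0.56) and neuronal mir-124 (1.05 ± 0.64), each under 15 CPM in every day 20 library. Like mir-797, both reached 10 counts in the rotenone libraries only. The rule for members thus admitted mir-797, mir-1830 and mir-124 through the group in which they were higher. Among the larger differences in no list, mir-236, a miR-200 relative, stood at 2228 and 2269 against 1734 and 1635 CPM (0.42 ± 0.16, adjusted p = 0.151), and mir-232 at 53.6 and 64.3 against 80.9 and 78.0 CPM (-0.43 ± 0.24, adjusted p = 0.390), in edgeR on 22 libraries.

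The other lists had no call on 22 libraries. The 3 fitted mir-44 family members had a median of 0.22, where mir-44 and mir-45 differed by at most 2.74% in any library and count as a single uncertain value. The 4 members of the mir-64 cluster had a median of 0.12, all above 0 with TMM and 3 of 4 below 0 in the 4-library fit. The mir-51 family had a median of 0.05, with 4 of 6 above 0 and 2 below, and a median of -0.08 in the 4-library fit. The mir-238 family had a median of -0.10, with mir-238 at 8605 and 8270 against 9228 and 8817 CPM and mir-239a at 3185 and 3167 against 3368 and 3471 CPM, both without overlap and both short of a call. The mir-72 family had a median of 0.44, the hairpins listed as mirtrons 0.45 with 3 fitted and -0.14 with the 2 in the 4-library fit, the neuronal list 0.04 with 4 fitted (-0.10 in the 4-library fit), and the muscle, intestine and glia list 0.29. In this last list mir-60, an intestinal miRNA, was at 880.3 and 777 against 603 and 639 CPM (0.42 ± 0.43), the glial mir-228 at 136137 and 118914 against 107749 and 101098 CPM (0.29 ± 0.19), and the muscle mir-1 at 139 and 194 against 154 and 199 CPM (-0.09 ± 0.26). Summed, the neuronal hairpins made up 229 and 271 against 176 and 291 CPM, which overlapped, and the muscle, intestine and glia hairpins 137156 and 119884 against 108506 and 101936 CPM. The latter sum, nearly all of it mir-228, did not overlap with TMM and did with total counts (137172 and 112961 against 115050 and 106132). The part of these tissues in the other differences was not tested.

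**Figure D4:**
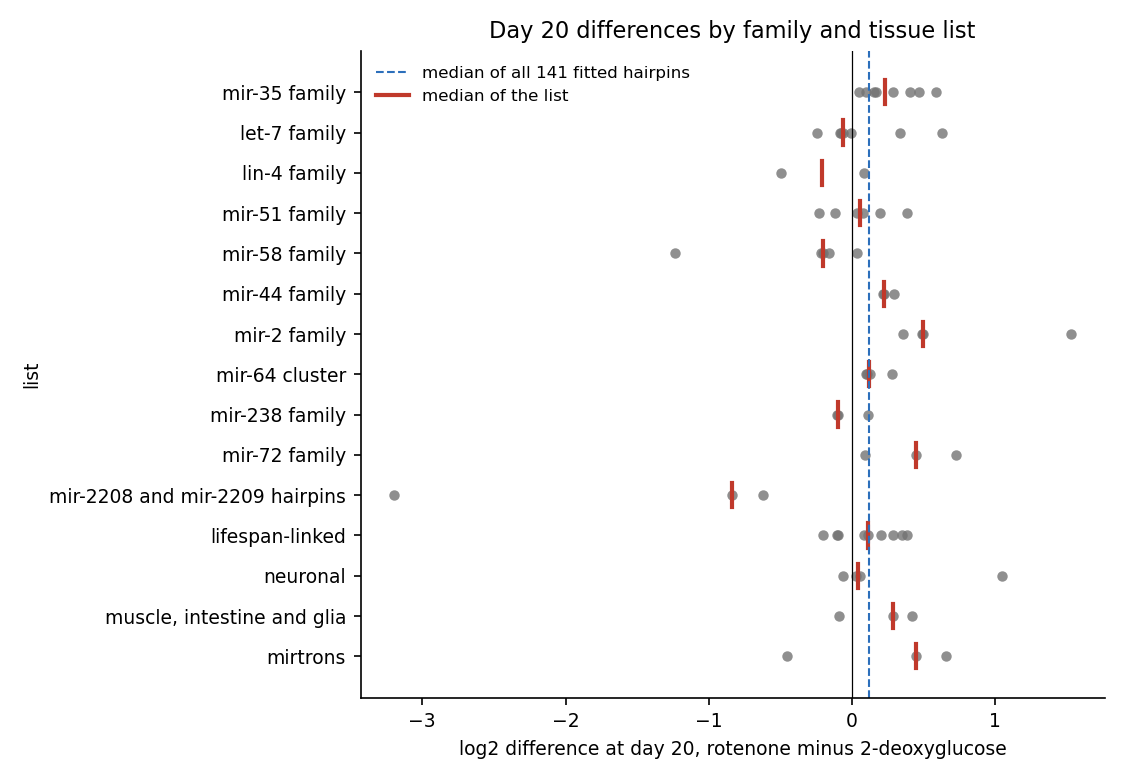
Log2 differences at day 20 (horizontal axis) for each list of hairpins (vertical axis), with a grey point per fitted hairpin, the list median in red and the median of all 141 fitted hairpins, 0.12, as a dashed line. The mir-2208 and mir-2209 list has the lowest median (-0.84) and the mir-2 family the highest (0.49).

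The 9 lifespan-linked hairpins had a median of 0.11 (-0.02 in the 4-library fit), with 6 above 0 and 3 below, and 4 of them had the rotenone group above and 3 below without overlap, beside 40.3% and 17.8% of all members. With total counts 2 were above and 3 below without overlap. The largest was mir-246, whose level in adults has been linked to later lifespan. It stood at 17804 and 19782 CPM with rotenone and at 14829 and 14049 CPM with 2-deoxyglucose, a log2 difference of 0.38 ± 0.13 (edgeR, adjusted p = 0.145). At day 1 it was lower with rotenone (-0.36 ± 0.11, adjusted p = 0.0316), at day 5 it was at -0.28 ± 0.11 and at day 10 at -0.12 ± 0.11. Its level at day 10 ran from 9087 to 9529 CPM with rotenone and from 9832 to 10676 CPM with 2-deoxyglucose, below every day 20 library. The day 20 difference minus the mean of these was 0.63 ± 0.15 (adjusted p = 0.0166), the second of the 2 hairpins called for that contrast, and it was lost without rotenone library 2, without either 2-deoxyglucose library, or with lane as a factor. The lifespan-promoting mir-71 was at 2999 and 3228 against 2379 and 2514 CPM (0.35 ± 0.13, adjusted p = 0.151), and mir-34 at 3163 and 3828 against 2940 and 3128 CPM (0.20 ± 0.15). Neither passed, and the groups of mir-34 overlapped with total counts.

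**Figure D5:**
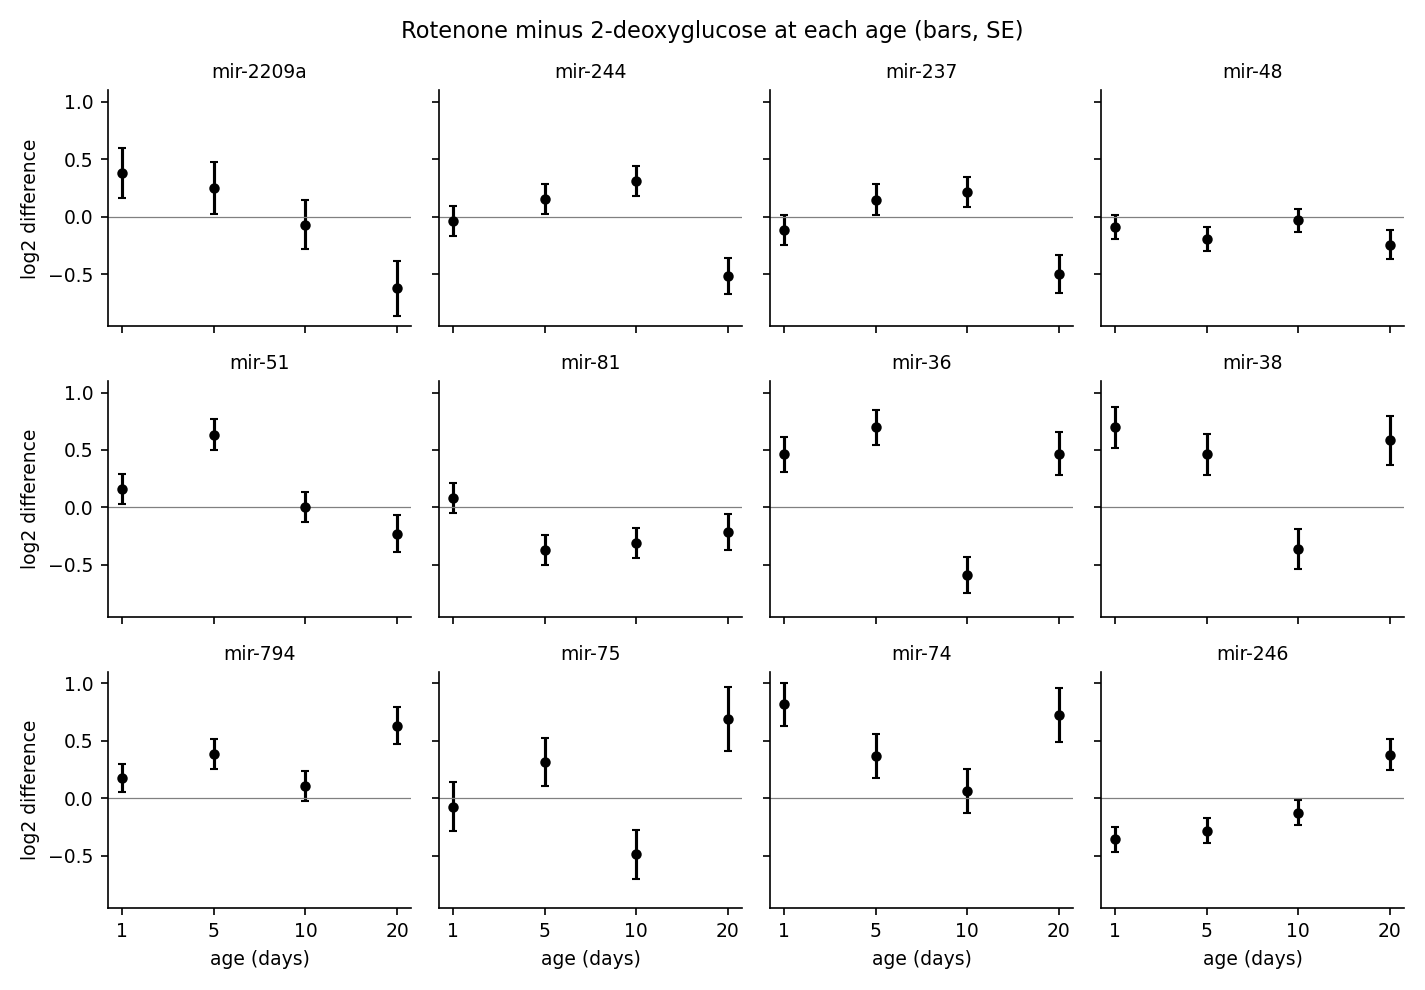
Log2 difference (rotenone minus 2-deoxyglucose, bars are SE) at 1, 5, 10 and 20 days for 12 hairpins, fitted on 22 libraries. The difference of mir-244 goes from 0.31 at day 10 to -0.52 at day 20, and that of mir-246 from -0.36 at day 1 to 0.38 at day 20.

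Over all members with TMM, 75 of 129 (58.1%) had groups that did not overlap, 52 with rotenone above (40.3%) and 23 below (17.8%). The split followed the scaling: with DESeq2 size factors it was 27 above and 42 below, and with total counts 31 above and 35 below. Among the 141 fitted hairpins 95 were above 0 and 46 below with TMM, and 64 and 77 with DESeq2 size factors, which lowered the median difference by 0.14 on the log2 scale. Among the named hairpins, some without overlap kept their direction of difference in all alternatives. Lower with rotenone were, among others, mir-2208a, mir-2208b, mir-2209a, mir-237, mir-244, mir-1018, mir-48 and mir-81. Higher were, among others, mir-36, mir-38, mir-73, mir-74, mir-75, mir-794, mir-2, mir-43, mir-236, mir-71 and mir-246. Many of these were chosen for a call or for size, and the alternatives reuse the same day 20 libraries. Without overlap, leaving out 1 library cannot reverse the direction at the same scaling, so those settings do not test it. With lane as a factor mir-75 was at 0.0021.

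At the edge of the rule, lsy-6, mir-2220, mir-800 and mir-8196a had a second-highest count of 10 and were members, and mir-789-2, with 9, was not. One member, mir-5594, at the same edge, was too low for the fit of 22 libraries, and 13 fitted hairpins were not members because they were scarce at this age. No hairpin with counts in 1 group and none in the other had more than 5 counts, so no fold is given for them, and 48 hairpins had no count in any of the 4 libraries.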

How the data were processed

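Per the labels' protocols, the library kit was TruSeq for small RNA. The submitters' processing notes name, with no role or order, SAMtools 1.3.1-9, BWA 0.7.12-r1039, CASAVA 1.8.4 and Trimmomatic 0.36. The values deposited by the authors are unnormalized counts of 250 hairpins in 22 libraries. Not given in the sources used here are the build, the counter and the treatment of multiply mapped reads.

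Hairpins were kept by filterByExpr (minimum count 10, total 15), scaled by TMM and fitted with edgeR 4.0.16 in R 4.3.3 as 8 groups with robust dispersions. Each contrast took edgeR's quasi-likelihood F statistic, with p-values adjusted over 141 hairpins (Benjamini-Hochberg, 0.05). Standard errors are the size of the log2 difference over the square root of F. DESeq2 1.42.0 and limma 3.58.1 were alternatives. The code was tested on simulated data. Positions are those of Ensembl's WBcel235 annotation, matched by name. No hairpin sequence was used.

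Hairpins and lists were chosen with earlier results of these data known. Named hairpins are those called in either fit, the 10 largest differences in each direction with at least 50 CPM and no overlap, a followed set, and list members. No PCR-molecule identifiers were available, so counting precision covers counting error only.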

Additional observations from a re-analysis of the deposited data

Results flagged for a closer look

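The difference between treatments at day 20 was another than at the younger ages for mir-2208a, where the day 20 log2 difference minus the mean of the day 1, 5 and 10 differences was -2.62 (edgeR quasi-likelihood F test, adjusted p = 1.75e-05), and it remained called without each of the 4 day 20 libraries in turn. The same contrast was 0.63 for mir-246 (adjusted p = 0.0166), where the treatment difference was below 0 at the younger ages and above 0 at day 20. For mir-246 the contrast was no longer called without rotenone library 2 (0.47, adjusted p = 0.414), without 2-deoxyglucose library 1 (0.57, adjusted p = 0.321) or library 2 (0.45, adjusted p = 0.531), or with lane as a factor (0.55, adjusted p = 0.0840).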

How the results depend on the processing

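The day 20 call of mir-2208a and its direction held in all 22 alternatives, with log2 differences from -3.43 to -3.17. The number of hairpins called, 1 with edgeR on all libraries, was 3 with DESeq2 size factors, 3 with only members fitted, 12 from days 10 and 20, 12 without day 5, 4 with DESeq2, 2 with lane as a factor, 16 from the 4 day 20 libraries alone and 16 from DESeq2 on these 4. It was 1 without each day 20 library in turn. Of the alternatives chosen after seeing the data, the 4 libraries alone with the scaling of the whole table gave 20, and without each of them in turn from 1 to 30 (23 and 30 without rotenone library 1 and 2, and 1 without either 2-deoxyglucose library, each with the lone library of a group assumed to vary like the remaining pair). For the day 20 difference minus the younger mean, 2 hairpins were called, against 4 with DESeq2 size factors, 5 with total counts, 5 with DESeq2 and from 1 to 2 without each library. Of 15 lists, 10 had a median above 0, against 6 with DESeq2 size factors and 5 from the 4 libraries alone.

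Some differences changed sign, none of them called in the setting where the sign changed, and the cause was not tested. Of these, mir-51 was at -0.23 on 22 libraries and was called lower from the 4 libraries alone. With lane as a factor mir-51 was at 0.065, let-7 at 0.078, mir-1 at 0.022, lsy-6 at 0.38 and mir-239b at -0.068. For lin-4 the values were -0.063 (DESeq2 size factors), -0.035 (total counts), -0.051 (no filter), -0.051 (only members), -0.054 (4 libraries alone), -0.066 (days 10 and 20), -0.064 (DESeq2) and -0.017 (DESeq2 on the 4 libraries). For mir-239b they were -0.035 (DESeq2 size factors), -0.0022 (total counts), -0.028 (no filter), -0.016 (only members), -0.025 (4 libraries alone), -0.033 (days 10 and 20) and -0.035 (DESeq2). Without each day 20 library in turn, the fit of 22 libraries placed let-7 from -0.31 to 0.095, lin-4 from -0.16 to 0.17, mir-34 from -0.046 to 0.34, mir-1 from -0.46 to 0.13, lsy-6 from -0.38 to 0.13, mir-239b from -0.14 to 0.11 and mir-40 from -0.053 to 0.28. In the fit of the 4 libraries the sign changes were 0.027 for let-7, -0.088 and -0.14 for lin-4, -0.014 for mir-34, 0.16 for lsy-6, -0.14 in 2 of 4 fits for mir-239b, and -0.021 and -0.025 for mir-40.

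No paired analysis was possible because the labels give no replicate numbers, and the numbers used here follow the order of deposit. Depth limits the scarce hairpins: at 1 count worth up to 1.11 CPM, those under 15 CPM rest on few counts. With 2 libraries per group at day 20, the spread rests on the other ages or on 2 degrees of freedom.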
